A study of Caenorhabditis elegans with 16 samples.

Results

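The UDP-glucuronosyltransferase genes of *C. elegans*, named *ugt* with a number, were followed across 16 Affymetrix C. elegans arrays of whole worms. A gene was a member when its probe set, the group of probes that measures 1 gene, carried a *ugt* symbol and a number in the platform annotation and belonged to 1 gene only. This rule found 67 genes among the 25498 genes tested, each measured by 1 probe set, and the RefSeq table for the worm listed the same 67. The worms without food were *alfa-1(ok3062)* animals, labelled IW313, and wild-type N2 animals, labelled IW314 (a name that 1 label field gives to every sample), both kept for 6 hr in M9 buffer without bacteria. The well-fed worms were of the same strains and were described by the labels as held in M9 with food for the same time, whereas the methods of the study state that they were frozen directly. By that account hours without food, hours in buffer and age cannot be told apart. Each of the 4 groups had 4 arrays. *alfa-1* is the worm orthologue of human C9orf72, ok3062 is a deletion allele of it, and the mutant strain was backcrossed to N2. No stages were compared, since all worms were labelled L3, or L3/L4 in the methods. Separate cultures are stated for none of the samples, so the p-values are about the spread from sample to sample alone, and that spread may be only technical.

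UDP-glucuronosyltransferases are membrane enzymes of the endoplasmic reticulum that join a sugar from a UDP-sugar to small fat-soluble molecules. The sugar makes the molecule more soluble in water, so that it can be carried out of the cell by export pumps. In worms, where the family is large and glucose is often the sugar transferred, the intestine is a main site of this kind of detoxification, and the natural substrate of most members is not known. *ugt-22* is known from *C. elegans* for its link to tolerance of the anthelmintic drug albendazole.

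All values are deposited log2 expression values, and a difference of log2 values between groups is called a log2 change. The arrays were alike in level, with medians from 5.80 to 5.85. The *alfa-1* probe set checked the strain labels. It read 7.62, 7.63, 7.59 and 7.57 in well-fed *alfa-1(ok3062)* samples and 9.21, 9.39, 9.11 and 9.28 in well-fed N2 samples, and lay between 7.39 and 7.67 in starved mutant samples and between 9.23 and 9.59 in starved N2 samples. The strains did not overlap in either condition (exact permutation test, two-sided, p = 0.0286 in each, the smallest that 4 against 4 samples allow). The lowest array mean was 9.56 over 11 intestine markers and 7.45 over 4 sperm markers. The dimmest sperm marker, *msp-33*, averaged 5.80 in starved mutant worms, and the median over all genes was 5.85. RNA of sperm proteins and vitellogenins is not expected of L3 larvae, and no threshold for its presence is given by the deposited values. The mean over 6 adult markers (the measured vitellogenin genes and *col-19*) lay between 10.57 and 10.79 in starved mutant arrays and between 11.03 and 11.27 in well-fed mutant arrays. It lay between 10.81 and 11.02 in starved N2 arrays and between 11.001 and 11.22 in well-fed N2 arrays.

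The first question was how the family responded to food withdrawal in each strain. In *alfa-1(ok3062)* worms 28 of the 67 *ugt* genes fell and 8 rose after 6 hr without food, and in N2 worms 31 fell and 5 rose (limma over all 16 arrays, Benjamini-Hochberg adjustment over 25498 genes, adjusted p under 0.05). Among all genes tested 14.3% fell and 10.9% rose in the mutant, and 11.6% fell and 10.8% rose in N2. Of the *ugt* genes 41.8% fell and 11.9% rose in the mutant, and 46.3% fell and 7.46% rose in N2. The share of *ugt* genes that fell was thus above the share of all genes in both strains, while the share that rose was close to it. The falls were moderate in size, with a median log2 change of -0.86 (1.81-fold lower) among those that passed in the mutant and -0.87 (1.83-fold lower) in N2. The methods' t-test, on the 8 arrays of the strain and with the same adjustment, called 23 members in N2, of which 20 fell and 3 rose.

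Over all 67 members the median log2 change was -0.26 in the mutant, against -0.02 over all genes, and -0.39 in N2, against 0.01 over all genes. The change was negative in 49 members in the mutant (73.1%, against 52.5% of all genes) and in 50 members in N2 (74.6%, against 48.7% of all genes). In both strains 31 members had starved and well-fed arrays that did not overlap (46.3%), against 27.4% of all genes in the mutant and 24.4% in N2. A mean log2 value of at least 5 over all arrays was reached by 52 members. Tested among genes of that level alone, 24 of these fell in the mutant (46.2%, against 22.8% of all genes of that level) and 30 fell in N2 (57.7%, against 19.4%).

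**Figure D1:**
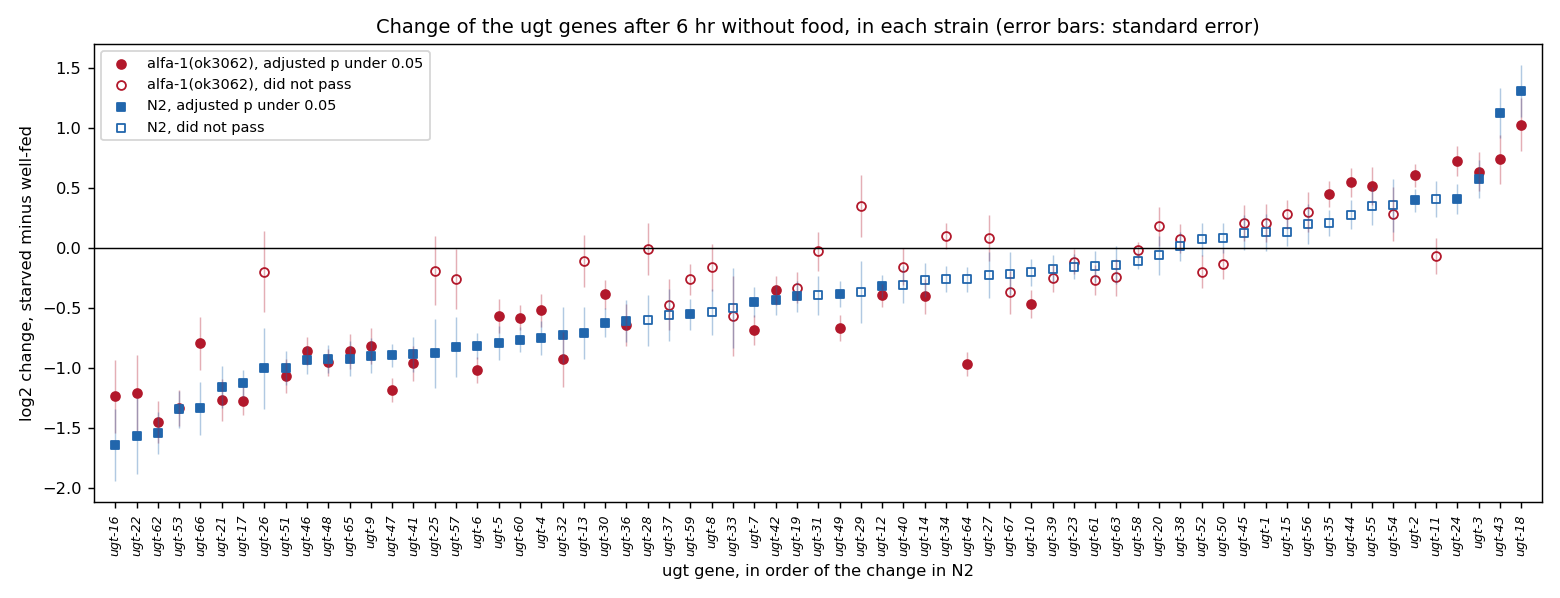
Log2 change of each of the 67 ugt genes, starved minus well-fed, in alfa-1(ok3062) (circles) and in N2 (squares), in the order of the change in N2, with standard errors as bars and filled symbols for an adjusted p under 0.05. Most filled symbols lie below 0, down to -1.64 for ugt-16 in N2, and ugt-18 is the highest in both strains, at 1.03 in the mutant and 1.31 in N2.

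The mean differences in the 2 strains come from separate arrays, while the spread behind both sets of calls was estimated from all 16 arrays together. In all 25 members fell in both strains (37.3%, against 8.76% of all genes), 5 rose in both (7.46%, against 5.75% of all genes), and none was called in opposite directions. The 30 shared calls were 83.3% of the 36 calls in each strain. Of these 36, 29 in the mutant and 24 in N2 passed whichever sample of the strain was left out. Shared members that lost a call in some of these fits were *ugt-30*, *ugt-36*, *ugt-42*, *ugt-43* and *ugt-66* in the mutant. In N2 they were *ugt-7*, *ugt-12*, *ugt-24*, *ugt-32*, *ugt-36*, *ugt-42* and *ugt-49*. Over all genes, 57.5% of the calls in the mutant and 64.8% of those in N2 were shared in the same direction. The sign was the same in both strains for 60 of 67 members (89.6%), against 74.4% of all genes. The 25 that fell in both had log2 changes between -1.45 and -0.35 in the mutant and between -1.64 and -0.32 in N2.

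*ugt-62*, on chromosome III, had among the largest falls in both strains. It read 7.69, 7.30, 7.38 and 7.12 in starved *alfa-1(ok3062)* samples and 9.06, 8.56, 8.76 and 8.92 in well-fed ones. In N2 it read 7.06, 7.04, 6.76 and 7.55 in starved samples and 8.27, 8.56, 8.82 and 8.93 in well-fed ones. Every starved sample lay below every well-fed sample of its strain. The log2 change was -1.45 in the mutant and -1.54 in N2 (standard error 0.176 for each, limma adjusted p = 4.24e-05 and 2.74e-05).

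*ugt-53* fell by nearly the same amount in both strains. It read 6.49, 5.87, 6.32 and 6.33 in starved mutant samples, against 7.37, 7.61, 7.80 and 7.56 in well-fed ones, and 6.20, 6.51, 6.04 and 6.62 in starved N2 samples, against 7.77, 7.46, 7.90 and 7.62 in well-fed ones. No starved sample reached the level of a well-fed one. The log2 change was -1.33 in the mutant and -1.34 in N2 (standard error 0.151, limma adjusted p = 2.49e-05 and 2.41e-05).

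The smallest p-values belonged to *ugt-17* and *ugt-47*, which lie on chromosome V with at most 1 other protein-coding gene between them. *ugt-47* read 9.50, 9.06, 9.11 and 9.14 in starved mutant samples, against 10.34, 10.41, 10.38 and 10.40 in well-fed ones, and 9.76, 9.59, 9.45 and 9.46 in starved N2 samples, against 10.34, 10.47, 10.54 and 10.48 in well-fed ones. The well-fed samples of *ugt-47* were tightly grouped and all starved samples lay below them. Its log2 change was -1.18 in the mutant (limma adjusted p = 1.38e-06) and -0.89 in N2 (limma adjusted p = 1.85e-05), with a standard error of 0.0974. *ugt-17* read 6.57, 6.61, 7.09 and 6.65 in starved mutant samples, against 7.90 to 8.14 in well-fed ones, and 6.80, 6.71, 6.65 and 6.47 in starved N2 samples, against 7.67 to 7.93 in well-fed ones. The mutant sample at 7.09 stood above the other starved samples and still below every well-fed one. The log2 change of *ugt-17* was -1.27 in the mutant (limma adjusted p = 3.02e-06) and -1.13 in N2 (limma adjusted p = 1.04e-05).

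*ugt-22*, the gene linked to albendazole tolerance, read 9.89, 9.93, 9.80 and 9.84 in starved mutant samples and 11.17, 10.99, 11.11 and 11.04 in well-fed ones. In N2 it read 9.72, 10.15, 8.10 and 10.26 in starved samples and between 10.99 and 11.25 in well-fed ones. The starved N2 sample numbered 3 was far below the other starved samples, which were themselves below all well-fed samples. The log2 change was -1.21 in the mutant (standard error 0.317, limma adjusted p = 0.011) and -1.56 in N2 (limma adjusted p = 0.00233), and without that sample the change in N2 was -1.08 and still passed. The standard error is shared by both strains and rests mainly on the starved N2 samples, whose standard deviation of 0.998 was the highest of any member in any group.

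*ugt-16* had the largest log2 change of any member in N2, -1.64 (standard error 0.303, limma adjusted p = 0.00118), and fell by 1.24 on the log2 scale in the mutant (limma adjusted p = 0.00743). It varied widely, from 4.40 to 5.19 in starved mutant samples, against 5.54 to 6.68 in well-fed ones, and from 4.11 to 5.56 in starved N2 samples, against 6.08 to 6.82 in well-fed ones. Its groups did not overlap despite this spread. *ugt-21*, *ugt-51*, *ugt-6* and *ugt-66* also fell in both strains. Their log2 changes in the mutant were -1.26 for *ugt-21*, -1.06 for *ugt-51*, -1.02 for *ugt-6* and -0.79 for *ugt-66*. In N2 they were -1.16 for *ugt-21*, -1.0 for *ugt-51*, -0.81 for *ugt-6* and -1.33 for *ugt-66* (limma adjusted p from 1.43e-05 for *ugt-6* to 0.0157 for *ugt-66*, both in the mutant). The call of *ugt-66* in the mutant was lost without the well-fed mutant sample numbered 3 (adjusted p = 0.0549).

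The members that rose in both strains were *ugt-2*, *ugt-3*, *ugt-18*, *ugt-24* and *ugt-43*. *ugt-18* read 5.05, 4.73, 5.48 and 4.79 in starved mutant samples, against 3.88, 4.01, 3.94 and 4.09 in well-fed ones, and 5.29, 5.06, 6.04 and 4.75 in starved N2 samples, against 4.05, 4.08, 4.11 and 3.67 in well-fed ones. All starved samples lay above all well-fed samples. The log2 change was 1.03 in the mutant (standard error 0.218, limma adjusted p = 0.0029) and 1.31 in N2 (limma adjusted p = 0.000539).

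*ugt-43* rose by a log2 change of 1.13 in N2 (standard error 0.206, limma adjusted p = 0.00112) and 0.74 in the mutant (limma adjusted p = 0.0154). It read 6.06, 5.26, 6.08 and 5.58 in starved mutant samples, against 5.05, 5.35, 5.06 and 4.56 in well-fed ones, and 6.69, 6.54, 7.08 and 6.25 in starved N2 samples, against 5.64, 5.49, 5.26 and 5.65 in well-fed ones. Starved and well-fed samples overlapped in the mutant and did not in N2. The mutant call was lost without the well-fed sample numbered 4 or the starved sample numbered 3 of that strain (highest adjusted p = 0.0572). The other rises were smaller, with log2 changes in the mutant of 0.61 for *ugt-2*, 0.64 for *ugt-3* and 0.73 for *ugt-24*, and in N2 of 0.40 for *ugt-2*, 0.58 for *ugt-3* and 0.41 for *ugt-24*. The call of *ugt-24* in N2 was lost without the starved sample numbered 1 or 3 or the well-fed sample numbered 2 or 4 of that strain (highest adjusted p = 0.0806).

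**Figure D2:**
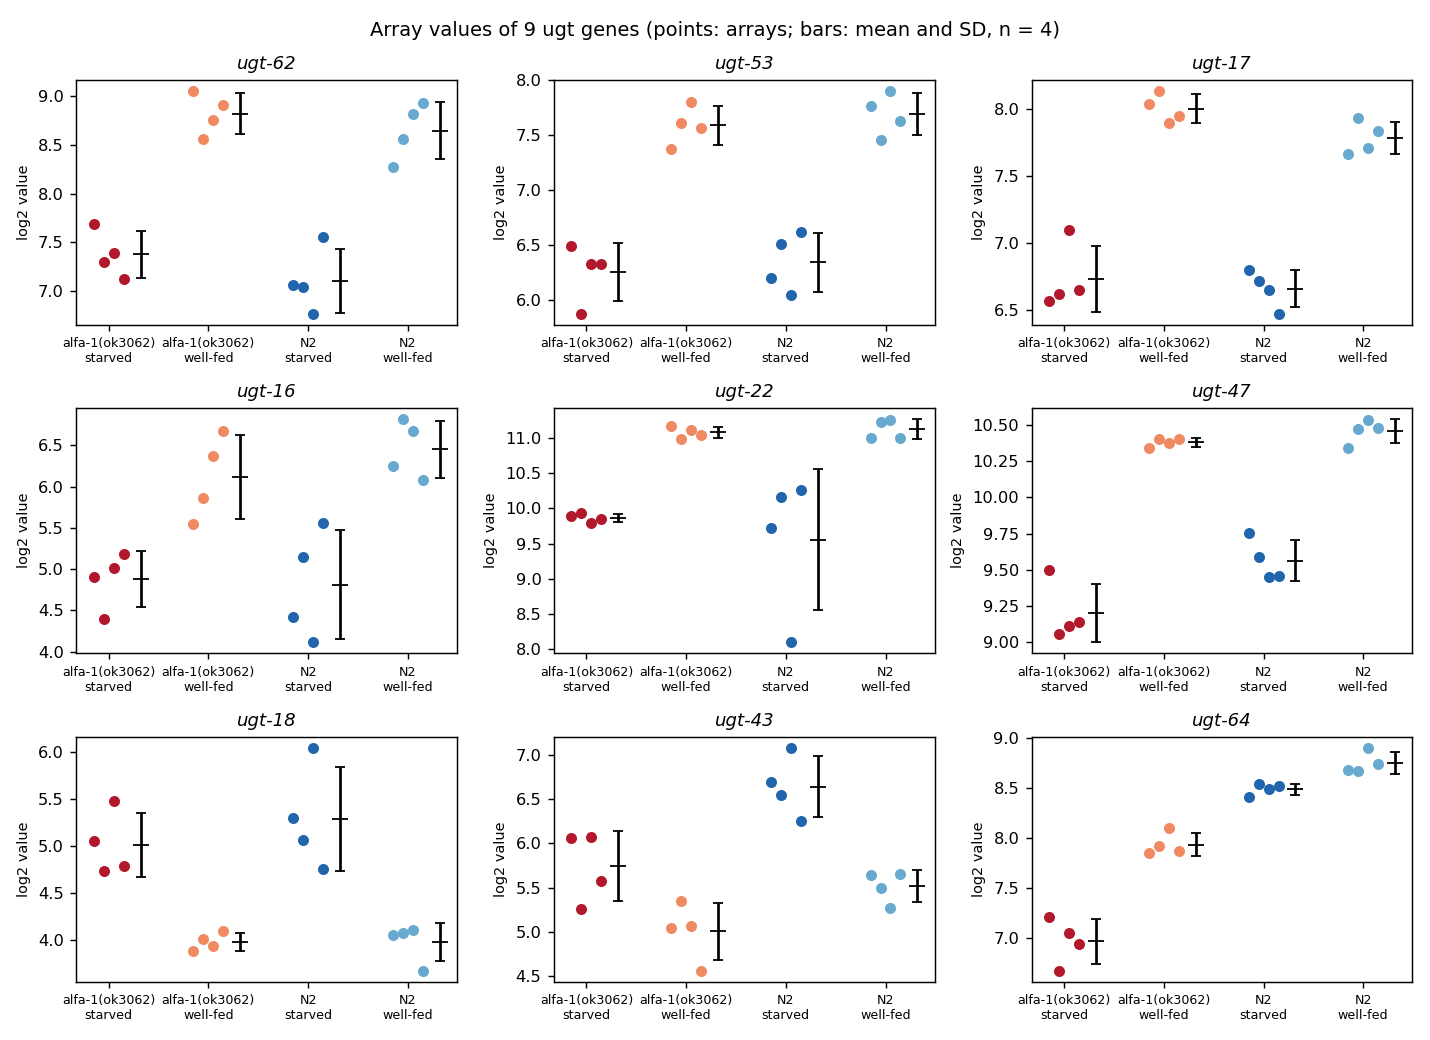
Log2 value on each array for 9 ugt genes in starved and well-fed alfa-1(ok3062) and N2 worms, with the mean and SD (n = 4) beside the points; each panel has its own vertical scale. Starved samples lie below well-fed ones for ugt-62, ugt-53, ugt-17, ugt-47, ugt-16 and ugt-22 and above them for ugt-18, the starved N2 sample of ugt-22 at 8.10 stands apart, and ugt-64 is lowest in starved mutant worms.

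A further 12 members passed in 1 strain only. *ugt-13*, *ugt-19*, *ugt-25*, *ugt-26*, *ugt-57* and *ugt-59* fell in N2 only, with log2 changes between -1.0 and -0.40 there and between -0.33 and -0.11 in the mutant, which did not pass. *ugt-59* alone of these 6 passed whichever sample was left out. *ugt-26*, the member of this group with the largest log2 change (-1.0, standard error 0.337, limma adjusted p = 0.0428), read 6.89, 6.48, 5.26 and 6.12 in starved N2 samples and 7.23, 7.80, 6.41 and 7.31 in well-fed ones, so its groups overlapped, and the call was lost without the starved sample numbered 3 or 4 or the well-fed sample numbered 1, 2 or 4 (highest adjusted p = 0.135). *ugt-10*, *ugt-14* and *ugt-64* fell in the mutant only, and *ugt-35*, *ugt-44* and *ugt-55* rose in the mutant only, by log2 changes of 0.45 to 0.55 against 0.21 to 0.35 in N2. *ugt-14* passed in 1 of 8 fits that left out a sample and *ugt-55* in 3 of 8. No difference between the strains in these 12 responses passed the test of the difference itself (smallest limma adjusted p = 0.735), and 1 of them, that of *ugt-64*, had an unadjusted p under 0.05.

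In the remaining 25 members no change passed in either strain, with log2 changes between -0.57 and 0.35 in the mutant and between -0.60 and 0.41 in N2. They included members with bright and with dim probe sets. *ugt-50*, on the X chromosome, read 9.13 to 9.34 in starved mutant samples, against 9.19 to 9.55 in well-fed ones, and 9.04 to 9.55 in starved N2 samples, against 8.86 to 9.37 in well-fed ones. *ugt-58*, the 1 member on chromosome II, where *alfa-1* also lies, varied little, and its log2 change was -0.02 in the mutant (95% interval -0.16 to 0.12) and -0.11 in N2 (95% interval -0.25 to 0.03). *ugt-15*, *ugt-38* and *ugt-67* averaged 3.59, 3.15 and 3.90 over all arrays. Values this low can lie near the background of the array, which the deposited values do not give. The same limit holds for dim members that were called, among them *ugt-35*, *ugt-59* and *ugt-3*, which averaged 3.73, 4.04 and 4.10. It also holds for *ugt-18* in well-fed worms, where it read 3.67 to 4.11.

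The spread between samples of a group was wider for the *ugt* genes than for genes in general, and widest in starved N2. The median standard deviation over the members was 0.216 in starved mutant worms, 0.172 in well-fed mutant worms, 0.243 in starved N2 worms and 0.171 in well-fed N2 worms, against 0.168, 0.135, 0.171 and 0.139 over all genes in the same groups. A standard deviation above 0.5 was found for 11 members in starved N2, and for 2, 1 and 1 members in the starved mutant, well-fed mutant and well-fed N2 groups. The starved N2 sample numbered 3 was the lowest of its group for 36 of 67 members (53.7%), against 22.8% of all genes. Without it 27 members passed in N2 (23 fell and 4 rose), all of them among the 36. The share of all genes that passed in that fit is not given here. The median over the 67 members was 5.89, 5.82, 6.01 and 5.85 on the starved mutant arrays and 6.20, 6.24, 6.36 and 6.22 on the well-fed mutant arrays. It was 5.96, 5.80, 5.55 and 5.94 on the starved N2 arrays and 6.35, 6.58, 6.41 and 6.40 on the well-fed N2 arrays. Starved arrays lay below well-fed arrays in both strains by this measure too.

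**Figure D3:**
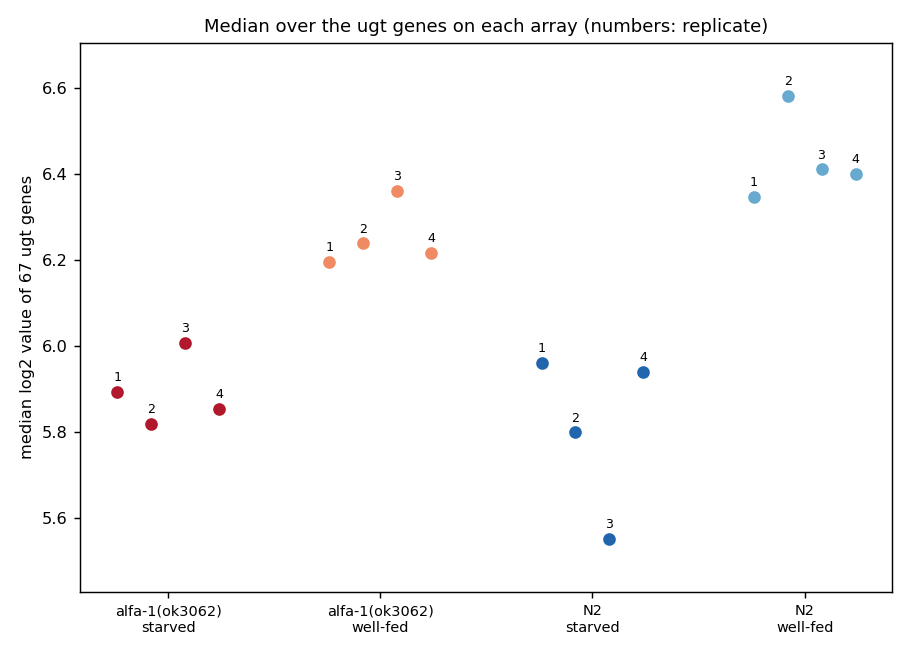
Median log2 value over the 67 ugt genes on each array, by strain and food, with the replicate number above each point. The starved arrays of each strain lie below its well-fed arrays, and the starved N2 array numbered 3 is the lowest of all, at 5.55.

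Tissue markers moved with food as well. The mean over 11 intestine markers, among them the transcription factor *elt-2* and the peptide transporter *pept-1*, lay between 9.62 and 9.75 in starved mutant arrays and between 9.88 and 9.96 in well-fed ones. In N2 it lay between 9.56 and 9.81 in starved arrays and between 9.88 and 9.99 in well-fed ones. Of the 11 intestine markers 4 fell and 1 rose in the mutant and 4 fell in N2. Their median log2 change was -0.12 in the mutant and -0.13 in N2. The log2 change of *elt-2* itself was 0.12 in the mutant and 0.15 in N2, and neither passed. Markers of the hypodermis, the skin of the worm, which are mostly cuticle collagens, lay on average between 10.1 and 10.3 in starved mutant arrays, against 10.6 and 10.7 in well-fed ones, and between 9.25 and 10.4 in starved N2 arrays, against 10.5 and 10.8 in well-fed ones. Of 7 hypodermis markers 2 fell in the mutant and 5 in N2, with a median log2 change of -0.58 in the mutant and -0.96 in N2. The lowest hypodermis and intestine means, 9.25 and 9.56, both belonged to the starved N2 sample numbered 3. Fewer cells of a tissue and less RNA per cell cannot be told apart in whole worms, and the part of these marker shifts in the *ugt* changes was not tested. None of 6 muscle markers passed in the mutant and 1 fell in N2, 1 rose and 1 fell of 8 neuron markers in the mutant while 1 rose and 2 fell in N2, none of 8 germ line markers passed in the mutant and 3 rose in N2, and 2 of 4 sperm markers fell in the mutant and none passed in N2. Of the 6 adult markers 2 rose and 2 fell in the mutant, and 3 rose and 2 fell in N2. Among all genes 14.3% fell and 10.9% rose in the mutant, and 11.6% fell and 10.8% rose in N2. Of genes with a mean log2 value of at least 5, 22.8% fell in the mutant and 19.4% in N2.

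The *ugt* genes lie mainly on chromosome V, which holds 42 of the 67. Of these 21 fell and 5 rose in the mutant, where 11.6% and 13.8% of all genes of that chromosome did so, and 19 fell and 3 rose in N2, against 9.75% and 10.3%. The 3 members on chromosome III fell in both strains (15.3% of all its genes fell in the mutant and 10.7% in N2). Of the 12 on chromosome IV 3 fell and 3 rose in the mutant, where 16.7% and 9.34% of all its genes did so. In N2 5 of them fell and 2 rose, against 12.6% and 10.3%. Of the 5 on chromosome I none passed in the mutant and 2 fell in N2 (15% of all its genes fell in the mutant and 11% in N2). In the gene order of the RefSeq assembly WBcel235, 37 members formed 12 runs with at most 1 other protein-coding gene between neighbours, and 30 stood alone. In the runs 12 fell (32.4%) and 7 rose (18.9%) in the mutant, and 14 fell (37.8%) and 4 rose (10.8%) in N2. Of the members that stood alone 16 fell (53.3%) and 1 rose in the mutant, and 17 fell (56.7%) and 1 rose in N2. Both shares that fell were above the 14.3% of all genes in the mutant and the 11.6% in N2. The median of the members' mean log2 values was 5.51 in runs and 6.69 for lone genes. Among all genes with a mean of at least 5, falls were more frequent, at 22.8% in the mutant and 19.4% in N2. Level and position thus differed together, and the difference between runs and lone genes was not tested.

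Neighbours did not always move together. *ugt-18*, *ugt-16* and *ugt-15* form a run, and *ugt-18* rose and *ugt-16* fell in both strains. In the run *ugt-5*, *ugt-4*, *ugt-6* and *ugt-3* the other 3 genes fell and *ugt-3* rose, with log2 changes in the mutant of -0.57 for *ugt-5*, -0.52 for *ugt-4*, -1.02 for *ugt-6* and 0.64 for *ugt-3*. In N2 these were -0.79 for *ugt-5*, -0.75 for *ugt-4*, -0.81 for *ugt-6* and 0.58 for *ugt-3*. *ugt-47* and *ugt-17* fell together, and *ugt-43* and *ugt-44* rose together in the mutant. The longest run, of 8 genes from *ugt-12* to *ugt-13*, held 4 genes that fell in the mutant and 3 that fell in N2. Of all genes on its chromosome, V, 11.6% fell in the mutant and 9.75% in N2. Copies of a family can be alike in sequence, and whether a probe set also detected a neighbour's RNA was not tested.

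**Figure D4:**
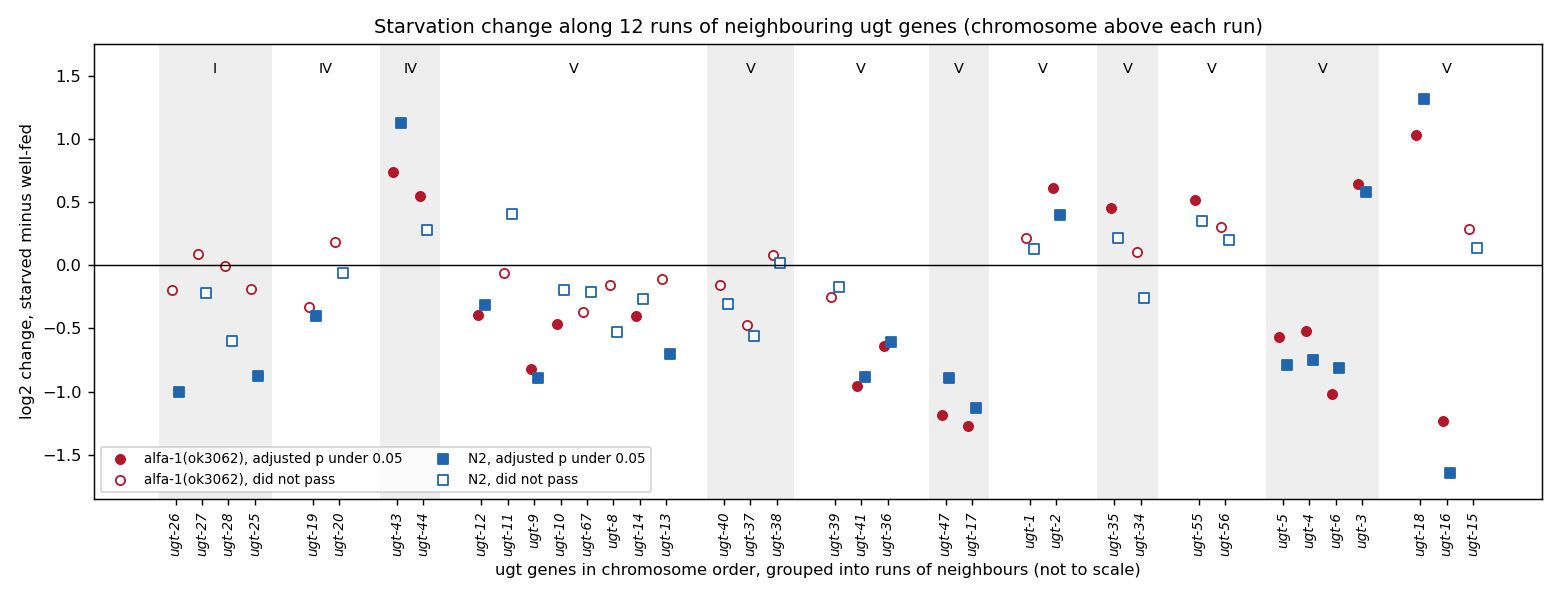
Log2 change, starved minus well-fed, of the 37 ugt genes in 12 runs of neighbours, in chromosome order and not to scale, with the chromosome above each run, for alfa-1(ok3062) (circles) and N2 (squares); filled symbols passed an adjusted p of 0.05. In the last run ugt-18 lies above 0 and its neighbour ugt-16 below it in both strains, and ugt-3 lies apart from the other genes of its run.

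The next question was whether the mutant differed from N2 in the family. In well-fed *alfa-1(ok3062)* worms 1 *ugt* gene was below its N2 level and none was above it, and the same counts were found in starved worms (limma, adjusted p under 0.05). Among all genes 0.0863% were lower and 0.00392% higher in well-fed mutant worms, and 0.0745% were lower and 0.0196% higher in starved mutant worms. The gene was *ugt-64* in both conditions. At an unadjusted p under 0.05, 6 members were lower and 3 higher in well-fed mutant worms, against 2.38% and 2.34% of all genes, and 5 were lower and 6 higher in starved mutant worms, against 7.27% and 4.86% of all genes. The median log2 change of the 67 members, mutant minus N2, was -0.02 in well-fed worms and 0.08 in starved worms, against 0.00 and -0.02 over all genes. The first changed sign, to 0.01, without the well-fed sample numbered 2 of either strain.

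*ugt-64* lies on chromosome V, apart from any other *ugt* gene and on another chromosome than *alfa-1*. In well-fed worms it read 7.85, 7.92, 8.10 and 7.87 in *alfa-1(ok3062)* samples, against 8.68, 8.67, 8.90 and 8.74 in N2 samples. In starved worms it read 7.21, 6.68, 7.05 and 6.94 in *alfa-1(ok3062)* samples, against 8.41, 8.54, 8.49 and 8.52 in N2 samples. The mutant samples lay below all N2 samples in either condition. The log2 change, mutant minus N2, was -0.81 in well-fed worms (standard error 0.102, limma adjusted p = 0.00205), which is 1.76-fold lower, and -1.52 in starved worms (standard error 0.102, limma adjusted p = 6.74e-07), which is 2.86-fold lower. Both calls held whichever sample was left out, with adjusted p up to 0.0152 in well-fed and up to 8.71e-06 in starved worms. They were lost in the methods' t-test on the 8 arrays of a condition (adjusted p = 0.108 in well-fed and 0.0786 in starved worms), where no spread is pooled across genes or conditions.

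The comparisons of food share samples with those of strain. In the mutant the log2 change of *ugt-64* without food was -0.96 (limma adjusted p = 1.33e-05) and in N2 it was -0.26 (95% interval -0.48 to -0.04, limma adjusted p = 0.0811). The difference between these responses was -0.71 (95% interval -1.01 to -0.40). Its p was 0.00017 before adjustment, the smallest of the family, and 0.735 after adjustment over all genes by limma, so it did not pass. Whether *ugt-64* differs through the loss of *alfa-1* or through another difference between the strains cannot be told apart here.

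**Figure D5:**
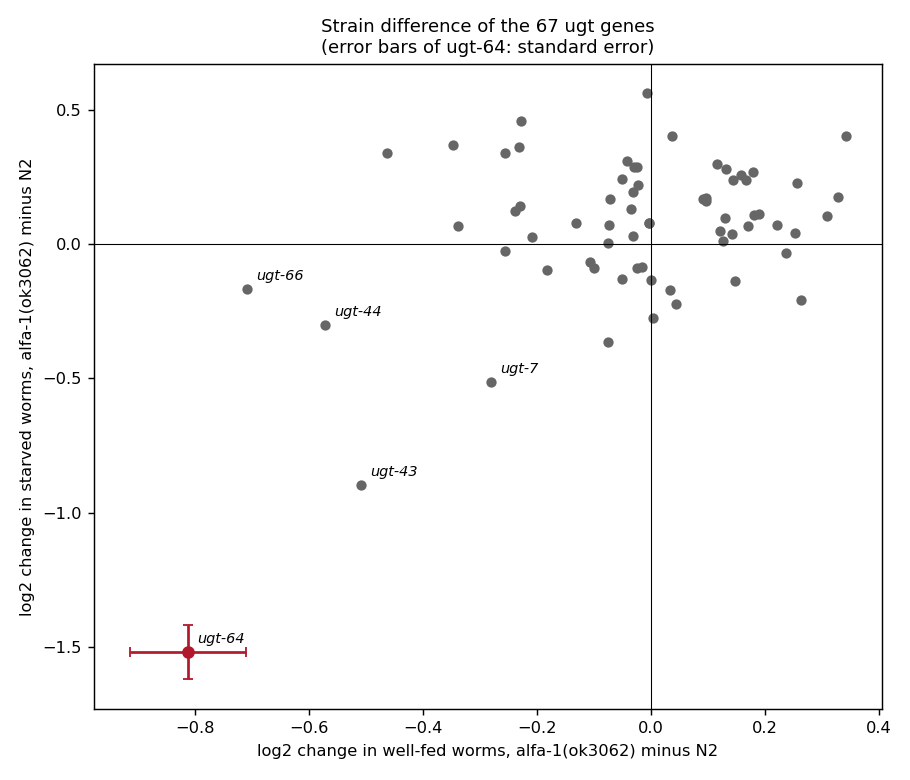
Log2 change, alfa-1(ok3062) minus N2, of each of the 67 ugt genes in well-fed worms (horizontal) and in starved worms (vertical), with standard errors for ugt-64. ugt-64 lies apart at -0.81 and -1.52, and most other members lie within 0.5 of 0 on both axes.

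Other members differed between the strains by less, and none passed. *ugt-44* read 5.90, 6.28, 6.12 and 6.01 in well-fed *alfa-1(ok3062)* samples, against 6.71, 6.69, 6.50 and 6.71 in well-fed N2 samples, with a log2 change of -0.57 (95% interval -0.83 to -0.32, limma adjusted p = 0.147). Its groups did not overlap, and in starved worms the log2 change was -0.30. It passed in well-fed worms under a further cyclic loess normalization (adjusted p = 0.0435) and with array weights (adjusted p = 0.0153). Its neighbour *ugt-43* had a log2 change of -0.51 in well-fed worms and of -0.90 in starved worms (95% interval -1.33 to -0.46, limma adjusted p = 0.132), where mutant and N2 samples did not overlap either. For *ugt-66* the log2 change in well-fed worms was -0.71 (95% interval -1.18 to -0.24, limma adjusted p = 0.683), and for *ugt-7* in starved worms it was -0.51 (95% interval -0.78 to -0.25, limma adjusted p = 0.17).

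The test of whether the response to food withdrawal differed between the strains, over all 25498 genes, called 0% of genes and none of the 67. At an unadjusted p under 0.05, 2 members had a lower and 1 a higher change in the mutant than in N2, against 3.71% and 2.73% of all genes. After *ugt-64*, the smallest p-values were those of *ugt-34*, with a difference of 0.36 (95% interval 0.04 to 0.69, limma adjusted p = 0.735), and *ugt-11*, with a difference of -0.47 (95% interval -0.93 to -0.02, limma adjusted p = 0.735). For single members of typical spread the standard error of this difference was 0.206 (the median over the 67), so small differences were not detectable with 4 arrays a group.

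Genes that act before and after the transferases were described beside them. Of 12 measured genes that supply or use UDP-sugars, 3 fell and 1 rose in the mutant without food and 4 fell in N2. All 12 averaged at least 5, and among all genes of that level 22.8% fell in the mutant and 19.4% in N2. Rises were found for 10.9% of all genes tested in the mutant and 10.8% in N2. *uggt-1*, whose product marks misfolded glycoproteins with glucose from UDP-glucose, had a log2 change of -0.53 in the mutant and -0.59 in N2, its relative *uggt-2* of -0.68 and -0.54 in these strains, and *pgm-1* of -0.52 and -0.41 (limma adjusted p of 0.00273 or less for each). *D1005.2* fell by 0.55 on the log2 scale in N2 (limma adjusted p = 0.0367), and its log2 change in the mutant was -0.22. The median log2 change of the 12 genes was -0.12 in the mutant and 0.02 in N2.

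Of 22 P-glycoprotein and multidrug resistance protein genes, 6 fell and 2 rose in the mutant, and 7 fell and 2 rose in N2. These genes encode ABC pumps that carry conjugates and other molecules out of cells. Among all genes 14.3% fell and 10.9% rose in the mutant, and 11.6% fell and 10.8% rose in N2. Of genes with a mean log2 value of at least 5, 22.8% fell in the mutant and 19.4% in N2. Whether the pumps differed from these shares was not tested. Among those of smallest p were *pgp-2*, with log2 changes of -0.90 in the mutant and -1.02 in N2, and *pgp-9*, with -0.89 and -0.99 in these strains. *pgp-13* fell by 0.65 and 0.62 on the log2 scale, and *mrp-4* rose by 0.34 and 0.48. The median log2 change of the 22 genes was -0.12 in the mutant and -0.13 in N2.

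Of 17 measured regulators of detoxification or intestinal genes, 4 rose and 1 fell in each strain, though not the same genes. Among all genes 10.9% rose and 14.3% fell in the mutant, and 10.8% rose and 11.6% fell in N2. *daf-16*, the FOXO transcription factor of insulin signalling, rose by 0.58 on the log2 scale in the mutant and 0.53 in N2 (limma adjusted p = 3.59e-05 and 7.51e-05). The nuclear receptor gene *daf-12* rose by 0.31 and 0.26 (limma adjusted p = 0.00481 and 0.0126). The other calls were in 1 strain only. *mdt-15*, a Mediator subunit gene, rose by 0.35 in N2 and its log2 change in the mutant was 0.17. The nuclear receptor gene *nhr-114* fell by 0.45 in N2 with a log2 change of -0.26 in the mutant, and *nhr-8* rose by 0.43 in N2 and had 0.28 in the mutant. In the mutant *sbp-1* rose by 0.37 and *hlh-30* by 0.21, against 0.28 and 0.15 in N2. *nhr-176* fell by 0.48 in the mutant, with a log2 change of -0.01 in N2. None of these genes, of the pumps or of the UDP-sugar genes passed in a comparison of mutant with N2 or in the test of the difference in response.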

How the data were processed

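Whole-worm RNA of 16 samples was measured on 1-colour Affymetrix arrays. The authors deposited log2 expression values per probe set, credited to RMA and Partek in the processing notes of the submitters, where no source used here gives a version. RMA equalizes the distributions of the arrays, so a shift shared by most genes would have been removed. Values ran from 1.84 to 14.2, and no signal over background was given. The precision of a change rests on the spread between arrays and on how many arrays there were. Of 29317 probe sets, 25546 had 1 gene, 646 several and 3125 were not listed. For the 37 genes with several probe sets, none of them a *ugt* gene, the probe set of highest mean was used.

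Limma 3.58.1 in R 4.3.3 modelled the 4 group means over all 16 arrays, leaving 12 residual degrees of freedom. P-values were adjusted by Benjamini-Hochberg over 25498 genes. The script was tested on simulated data. Figures used matplotlib 3.10.9 in Python 3.11.15, with numpy 2.4.6 and pandas 2.3.3. RefSeq (WBcel235) served only for names, chromosomes and neighbours. No source used here names the build behind the array annotation.

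The members and lists were chosen with earlier results of these data known. Genes named are, per comparison, the 10 largest changes that passed and the 3 smallest p, the 4 highest and 4 lowest means, and up to 4 genes per other list by p. Other genes were named after their values were seen. Alternatives were each array left out, the replicate block, the arrays of a comparison alone, 3 further normalizations and array weights. Further ones were an intensity trend, a filter on dim genes, probe set means, an unpaired t-test and a fold of 1.5.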

Additional observations from a re-analysis of the deposited data

Results flagged for a closer look

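In each group of 4 samples the values of 25 genes and the family median were checked for 1 sample far from the other 3, and 4 of 104 groups had one. Chance gives this in about 5% of groups. *ugt-17* read 7.09 in the starved *alfa-1(ok3062)* sample numbered 3, above 6.57 to 6.65 in the other 3. *ugt-44* read 6.27 in the starved *alfa-1(ok3062)* sample numbered 2, below 6.70 to 6.78 in the others, and 6.50 in the well-fed N2 sample numbered 3, below 6.69 to 6.71 in the others. *ugt-18* read 3.67 in the well-fed N2 sample numbered 4, below 4.05 to 4.11 in the others.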

How the results depend on the processing

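No called value changed sign. The family median did so for the strains in well-fed worms (-0.02), without the N2 or the mutant sample numbered 2 (0.01 each), and for the difference in response (0.08), without the starved N2 sample numbered 3 (-0.02). Of the alternative values for the counts and medians, 172 stayed within 1.5 times the count or 1 SD of the median and 7 did not. With single arrays left out, the members called ranged from 32 to 35 in the mutant without food (36 with all arrays), from 27 to 36 in N2 without food (36), and were 1 for the strains in well-fed worms, 1 to 2 in starved worms and 0 for the difference in response. In starved worms *ugt-47* was added without the starved mutant sample numbered 1. The medians ranged from -0.33 to -0.24 in the mutant without food, from -0.45 to -0.30 in N2, from -0.03 to 0.01 and from 0.04 to 0.16 for the strains in well-fed and starved worms, and from -0.02 to 0.11 for the difference in response. In well-fed worms cyclic loess and array weights each called 2 members, *ugt-44* being added. The unpaired t-test, on 8 arrays with Benjamini-Hochberg adjustment, called 23 members in N2 without food (20 fell and 3 rose, 22 of them among the 36). It called 0 for the strains in well-fed and in starved worms, where *ugt-64* had adjusted p = 0.108 and 0.0786 by this test. Leaving out genes with a mean log2 value under 5 moved the median in N2 without food to -0.54, over the 52 members that remained. The deviations of same-numbered samples correlated above 0.1 in 0 of 4 pairs in the mutant without food, 1 of 4 in N2, 0 of 4 for the strains in well-fed worms and 2 of 4 in starved worms (from -0.472 to 0.149), so the numbers were not taken as pairs. With the replicate block 35 members passed in the mutant without food and 37 in N2. It called 1 in each comparison of the strains and 0 for the difference in response. Shares of all genes called in these alternative fits are not given here, so the counts show only how the calls of members moved. Signal over background was not given, which limits what dim members can show.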
